A study of Mus musculus with 8 samples.

Results

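The transcripts described here encode the cytochrome P450 (P450), flavin-containing monooxygenase (FMO) and glutathione S-transferase (GST) enzymes of the mouse lung. Members were the genes whose symbol begins with Cyp1 to Cyp4, Fmo, or Gst followed by a class letter and a digit, taken from probe sets that the platform table assigns to 1 gene symbol. Each gene was represented by its probe set with the highest mean value, and genes with a mean log2 value under 6 over the 8 arrays were set aside. Of 107 matching genes, 65 passed, out of 15599 genes at that level in the whole series. Just inside the threshold were Cyp4x1 (mean log2 value 6.02) and Cyp2g1 (6.04), and just outside were Cyp2d34 and Cyp26a1 (both 5.96). The 42 genes left out included 24 of the Cyp2 prefix, 7 of Cyp4 and 5 of Cyp3, whereas all 17 GST genes passed. Because the rule reads letters, it also took 10 genes of P450 families with 2-digit numbers (Cyp11b2, Cyp20a1, Cyp21a1, Cyp24a1, Cyp26b1, Cyp26c1, Cyp27a1, Cyp27b1, Cyp39a1 and Cyp46a1) and Fmod. Fmod encodes fibromodulin, a collagen-binding matrix proteoglycan and no FMO, so 64 members were enzymes or their pseudogenes.

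Most P450s, and the FMOs, are microsomal haem and flavin enzymes. They add an atom of oxygen to lipophilic molecules with electrons from NADPH, and GSTs then join such reactive products to glutathione. In the lung these enzymes are known from club cells, the secretory cells of the small airways, from alveolar type II cells and from endothelium, and they decide where inhaled chemicals are activated or disposed of. Several P450s also act on the body's own molecules, such as arachidonic acid, leukotrienes, retinoic acid, vitamin D and sterols. In liver, many of them are known to fall during the acute phase response to bacterial products.

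The samples were 8 pools of whole-lung RNA, each from 3 FVB mice aged 8 to 12 weeks with the sexes evenly mixed, hybridised to Affymetrix gene arrays. CCSP-p52 mice carried CCSP-tTS, (tet-O)7-FLAG-p52 and CCSP-rtTA and expressed FLAG-tagged p52, the processed product of Nfkb2, in airway epithelium. WT mice were genotype-negative littermates from crosses to CCSP-rtTA homozygotes, and the labels do not say whether they carried CCSP-rtTA. All mice of the 4 groups received doxycycline (dox, 2 g/L with 2% sucrose) in drinking water for 1 week, and the WT LPS and CCSP-p52 LPS groups were also given intratracheal bacterial lipopolysaccharide (LPS) 48 hours before harvest. Each group (WT dox, CCSP-p52 dox, WT LPS and CCSP-p52 LPS) held 2 pools, so p-values measure the spread between pools of 3 mice. Transgene expression came from a Clara (club) cell promoter, whereas the RNA came from all cells of the lung.

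Nfkb2 separated the genotypes in the dox pools but not in the LPS pools, and 2 of the 4 LPS pools stood apart. Nfkb2 read 9.51 and 9.58 in WT dox and 10.198 and 10.33 in CCSP-p52 dox on the log2 scale, and 10.83 and 10.56 in WT LPS and 11.28 and 10.53 in CCSP-p52 LPS. Nfkb2 rose with LPS in WT lungs too, by 1.15 ± 0.24 (log2, SE), so its values with LPS do not measure the transgene alone. The p52 effect on Nfkb2 with LPS was 0.21 ± 0.24, and CCSP-p52 LPS pool 2 read below both WT LPS pools. The pool is named here by its label, and results that turn on it are given without it too. Neutrophil markers averaged 6.90 to 7.43 in the dox pools and 10.69 to 11.48 in the LPS pools, whereas the 6 hepatocyte markers at the level used averaged 6.39 to 6.75 in all pools. CCSP-p52 LPS pool 2 moved least: its median absolute difference from its dox pools over all genes was 0.175 on the log2 scale, against 0.267 to 0.289 in the other LPS pools. WT LPS pool 2 carried squamous epithelial transcripts (mean of 6 markers 11.01, against at most 6.70 in every other pool) and skeletal muscle transcripts (mean of 8 markers 9.16, against at most 7.37).

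The promoter stretches below are shown because they join a shared short motif to transcripts that moved in opposite directions with LPS. Each is the 150 bases before the RefSeq transcription start (GRCm38.p6), written 5′ to 3′ on the strand of the gene. In the first pair, Cyp1a1 and Cyp1b1, the capitals mark GCGTG, the core letters bound by the aryl hydrocarbon receptor, in either orientation. In the second pair, Gsta3 and Cyp4f18, they mark TGACNNNGC, the core of the antioxidant response element.
Cyp1a1, chr9:57697463-57697612, plus strand: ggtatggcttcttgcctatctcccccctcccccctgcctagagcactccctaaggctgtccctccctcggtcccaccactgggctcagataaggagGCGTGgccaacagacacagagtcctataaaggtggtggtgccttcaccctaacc
Cyp1b1, chr17:79715062-79715211, minus strand: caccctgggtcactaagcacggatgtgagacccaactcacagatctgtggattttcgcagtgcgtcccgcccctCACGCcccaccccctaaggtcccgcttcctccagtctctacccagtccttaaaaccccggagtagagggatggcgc
Gsta3, chr1:21240435-21240584, plus strand: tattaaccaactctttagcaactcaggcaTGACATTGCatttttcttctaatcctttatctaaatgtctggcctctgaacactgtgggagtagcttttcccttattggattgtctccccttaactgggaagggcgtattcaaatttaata
Cyp4f18, chr8:72009627-72009776, minus strand: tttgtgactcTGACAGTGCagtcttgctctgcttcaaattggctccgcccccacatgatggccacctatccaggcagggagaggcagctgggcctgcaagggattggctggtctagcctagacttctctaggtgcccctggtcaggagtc

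Promoters (250 bases before to 50 after a start) were at hand for 51 of the 65 members, 59 sequences in all, and were searched on both strands. GCGTG occurred in 14 of the 51 members (27.5%), against 35.2% of all 27025 genes with a promoter in the table. TGACNNNGC occurred in 6 (11.8%, against 13.99%), an NF-kB type motif (GGGA and CC around 4 free bases) in 11 (21.6%, against 22.9%), and a glucocorticoid receptor type motif (GNACA and TGTNC around 3 free bases) in 0 (against 0.537%). No 2 of these motifs overlapped in a member. Of the 23 members with a promoter that were lower with LPS, 5 held GCGTG, 3 held TGACNNNGC and 7 held the NF-kB type motif, and of the 4 that were higher, 2, 2 and 1 did. Each of these 3 motifs thus occurred both among lower and among higher members.

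The first comparison asked what LPS did to these transcripts, with the genotype as the other term of a limma model over all 8 arrays. LPS lowered 28 of the 65 members and raised 4 (limma, adjusted p under 0.05 over all probe sets with 1 symbol). Over all 15599 genes at this level the same test called 24.7% lower and 15.2% higher, against 43.1% and 6.15% of the members. The median log2 change of the members was −0.30, and that of all genes was −0.03. By class, 10 of 33 genes of P450 families 1 to 4 were lower and 3 higher, and 3 of the 10 other P450s were lower. Of 4 FMO genes 3 were lower, and of 17 GST genes 11 were lower and 1 higher. Median log2 changes were −0.10 for P450 families 1 to 4, 0.00059 for the other P450s, −1.21 for FMO genes and −0.56 for GST genes. The shares of P450s called lower were nearer that of all genes than the FMO and GST shares were. With the pool number as a block, Cyp4b1 and Cyp3a13 (−0.33; adjusted p = 0.028) joined the lower members, for 30, and Cyp4f16 (0.30; adjusted p = 0.029) the higher, for 5. With the arrays centred again on their medians, the split of calls was 25 lower and 8 higher, or 75.8% lower in place of 87.5%. In 25 members (38.5%, against 25.9% of all genes) all 4 LPS pools read below all 4 dox pools, and in 6 (9.23%, against 16.8%) they read above. Because whole lung was measured, fewer cells of a type and less RNA per cell cannot be told apart.

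**Figure D1:**
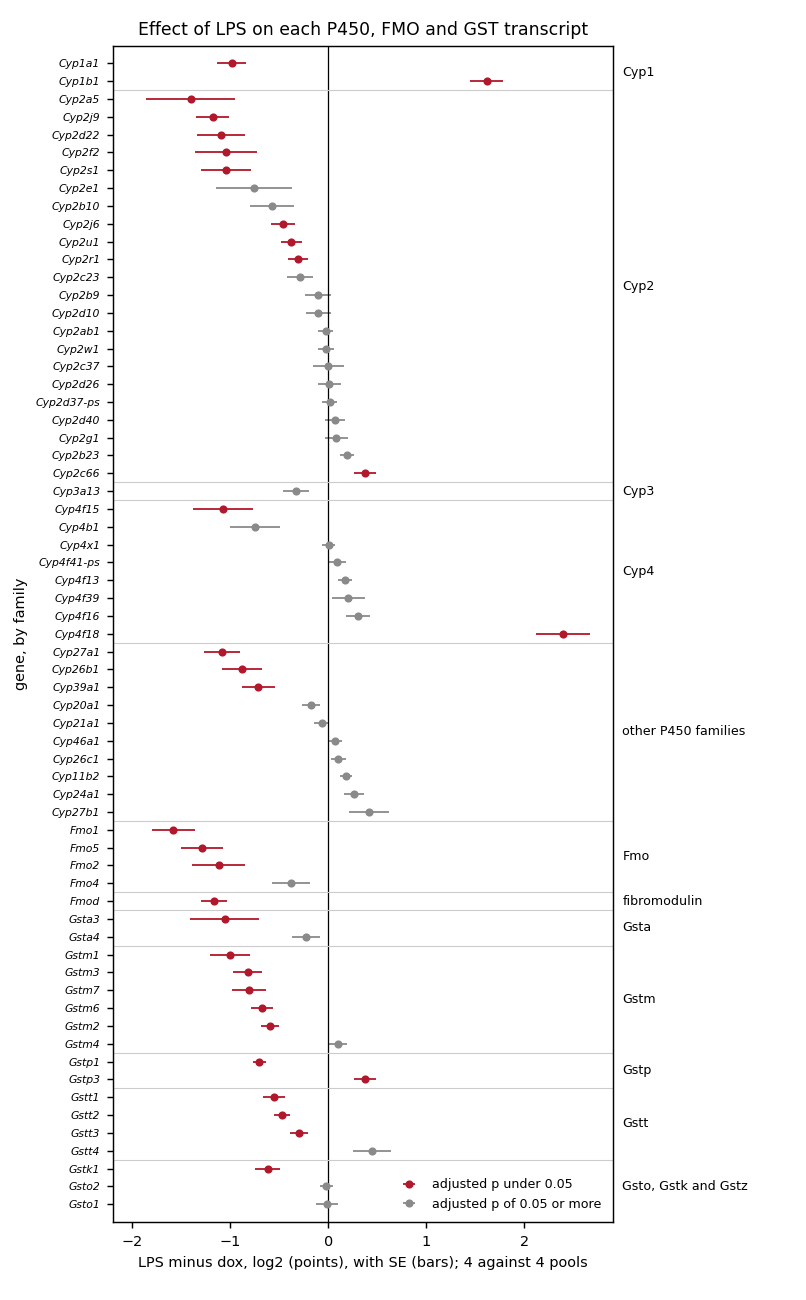
LPS effect on each member. Points give the log2 difference LPS minus dox from the additive model and bars its SE (4 against 4 pools), grouped by family; red points had an adjusted p under 0.05. Fmo1 lies lowest at −1.58, and Cyp4f18 (2.39) and Cyp1b1 (1.62) lie highest.

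The FMO genes fell most as a family, with a median log2 change of −1.21. Fmo1, which oxidises nitrogen and sulfur atoms of drugs, read 12.98, 13.02, 12.88 and 12.83 in the dox pools (WT pools 1 and 2, then CCSP-p52 pools 1 and 2) and 11.14, 11.38, 10.88 and 11.99 in the LPS pools in the same order. No LPS pool reached the lowest dox pool, and the change was −1.58 ± 0.22 (log2, SE; 2.99-fold lower; adjusted p = 0.0013). Fmo2, the main FMO of the lung in most mammals, read 12.94, 12.92, 12.96 and 12.998 without LPS and 11.61, 11.76, 11.24 and 12.73 with LPS. The groups again did not overlap, although CCSP-p52 LPS pool 2 lay close under the dox pools, and the change was −1.12 ± 0.27. Fmo5 fell by 1.29 ± 0.21 on the log2 scale (adjusted p = 0.0028). Fmo4 changed by −0.38 ± 0.19, which did not pass (adjusted p = 0.16). Fmod, the proteoglycan gene that the letters of the rule took in, changed by −1.17 ± 0.13 (adjusted p = 0.00055).

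Of the 8 P450s taken as best known in lung, Cyp2f2, Cyp2s1, Cyp1a1 and Cyp2a5 fell over both genotypes and Cyp1b1 rose. The tests for Cyp2b10, Cyp4b1 and Cyp2e1 did not pass. Cyp2a5 changed by −2.43 ± 0.42 in WT lungs and by −0.38 ± 0.42 in CCSP-p52 lungs. Cyp2f2, the club cell enzyme that activates naphthalene, read 13.95, 14.07, 13.91 and 13.92 without LPS and 12.53, 13.44, 12.10 and 13.60 with LPS. The groups did not overlap, but pool 1 read well below pool 2 in both LPS groups (−1.05 ± 0.31; adjusted p = 0.034). Cyp2s1, a P450 of epithelial cells that aryl hydrocarbon receptor ligands induce, read 11.38, 11.71, 11.39 and 11.39 without LPS and 10.05, 10.96, 9.81 and 10.85 with LPS, a change of −1.05 ± 0.25 (adjusted p = 0.015). Cyp4b1, which activates aromatic amines and plant furans, read 12.54, 12.68, 12.48 and 12.53 without LPS and 11.57, 11.93, 11.21 and 12.55 with LPS. The last of these pools lay among the dox pools, and the change of −0.75 ± 0.25 had an adjusted p of 0.053 (0.025 with the pool number as a block). Cyp2b10, a target of the nuclear receptor CAR, showed the same pattern, with 12.98, 13.03, 12.99 and 12.97 without LPS and 12.14, 12.40, 11.97 and 13.14 with LPS (−0.58 ± 0.22; adjusted p = 0.082). Without CCSP-p52 LPS pool 2, both passed, at −1.04 for Cyp4b1 and −0.84 for Cyp2b10, as did Cyp2e1, the ethanol-inducible P450, at −1.11 in place of −0.76 ± 0.39. Without CCSP-p52 LPS pool 1 the changes were smaller for Cyp2b10 (−0.375) and Cyp4b1 (−0.503), and without WT LPS pool 1 that of Cyp2e1 was −0.451.

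**Figure D2:**
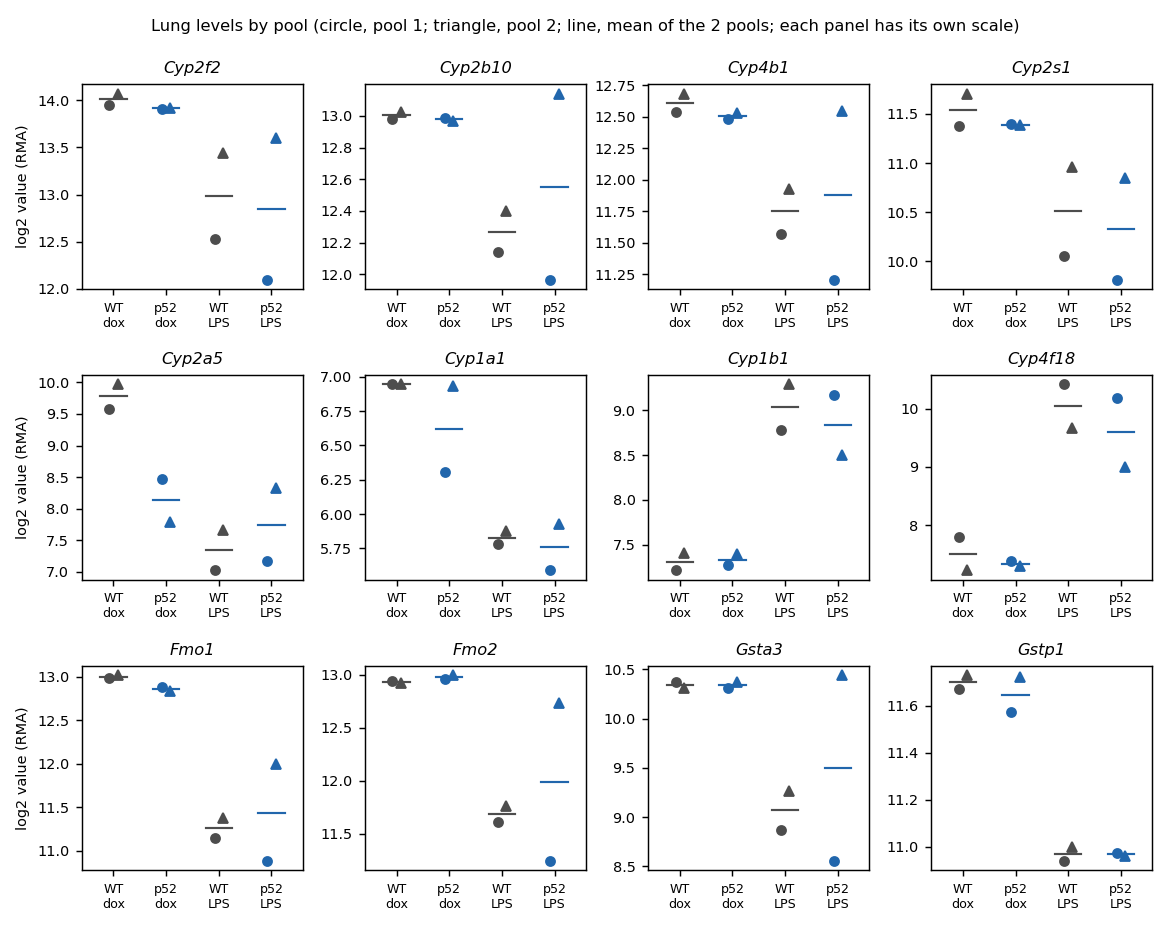
Log2 values of 12 members in each pool. Circles are pool 1, triangles pool 2 and lines the mean of the 2 pools; black is WT and blue CCSP-p52. The triangle of CCSP-p52 LPS lies near or among the dox pools for Cyp2b10, Cyp4b1, Fmo2 and Gsta3, and with the other LPS pools for Gstp1.

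The 2 Cyp1 genes moved in opposite directions. Cyp1a1, the classical aryl hydrocarbon receptor target that oxidises polycyclic hydrocarbons, read 6.94, 6.94, 6.30 and 6.93 without LPS and 5.78, 5.88, 5.59 and 5.93 with LPS (−0.99 ± 0.14; adjusted p = 0.0018). Every LPS pool was below every dox pool, at values near the low end of the level range used. Cyp1b1, which oxidises the same hydrocarbons as well as oestradiol, read 7.21, 7.41, 7.27 and 7.39 without LPS and 8.78, 9.29, 9.18 and 8.50 with LPS. It rose in all 4 pools, by 1.62 ± 0.17 (3.07-fold; adjusted p = 0.00041). A dimmer Cyp1b1 probe set changed by only 0.30 ± 0.10 (adjusted p = 0.048), the same direction at a smaller size. Ahr, which encodes the aryl hydrocarbon receptor, fell by 1.29 ± 0.11 on the log2 scale.

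P450s of leukotriene, fatty acid and vitamin metabolism also went both ways. Cyp4f18, which inactivates leukotriene B4 in neutrophils, had the largest rise of any member. It read 7.80, 7.22, 7.38 and 7.30 without LPS and 10.42, 9.67, 10.19 and 9.002 with LPS, a change of 2.39 ± 0.28 (5.26-fold; adjusted p = 0.00064). The 10 neutrophil markers all rose with LPS, with a median log2 change of 3.80, and their part in the Cyp4f18 rise was not tested. Its paralogue Cyp4f15 moved the other way, from 8.15, 8.44, 7.92 and 7.94 to 6.47, 7.58, 6.44 and 7.65 (−1.08 ± 0.31; adjusted p = 0.027). Cyp2j9, an arachidonic acid hydroxylase, fell by 1.18 ± 0.17, and Cyp2d22 fell by 1.10 ± 0.25. Cyp27a1, the sterol 27-hydroxylase, fell by 1.09 ± 0.19, and the calls also took Cyp26b1, which clears retinoic acid, Cyp39a1, an oxysterol hydroxylase, and Cyp2r1, a vitamin D 25-hydroxylase. Cyp2c66 rose by 0.37 ± 0.11 (adjusted p = 0.036).

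Most GST transcripts were lower, and the classes differed in how evenly their genes moved. Gstp1, the pi class enzyme that is abundant in airway epithelium, read 11.67, 11.73, 11.57 and 11.72 without LPS and 10.94, 10.999, 10.98 and 10.96 with LPS. The 4 LPS pools nearly coincided, CCSP-p52 LPS pool 2 included, and the change was −0.70 ± 0.07 (1.63-fold lower; adjusted p = 0.00028). Its neighbour Gstp3 was higher, by 0.38 ± 0.11 (adjusted p = 0.03). Gsta3, an alpha class enzyme, read 10.37, 10.31, 10.31 and 10.38 without LPS and 8.87, 9.27, 8.55 and 10.44 with LPS (−1.06 ± 0.35; adjusted p = 0.049). The other 3 LPS pools were far below the dox pools, whereas CCSP-p52 LPS pool 2 was above all of them. Gsta4, which conjugates the lipid peroxidation product 4-hydroxynonenal, changed by −0.23 ± 0.14 (−0.101 without WT LPS pool 1 and −0.355 without WT LPS pool 2), and Gsto1, which reduces dehydroascorbate, by −0.02 ± 0.11. Neither passed. Gstm1 read 12.32, 12.42, 12.33 and 12.20 without LPS and 11.06, 11.45, 10.87 and 11.87 with LPS, with no overlap and a change of −1.01 ± 0.20. Gstm2 fell by 0.60 ± 0.09 and Gstt1 by 0.56 ± 0.11. Gstk1, the kappa enzyme of mitochondria and peroxisomes, was lower as well.

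**Figure D3:**
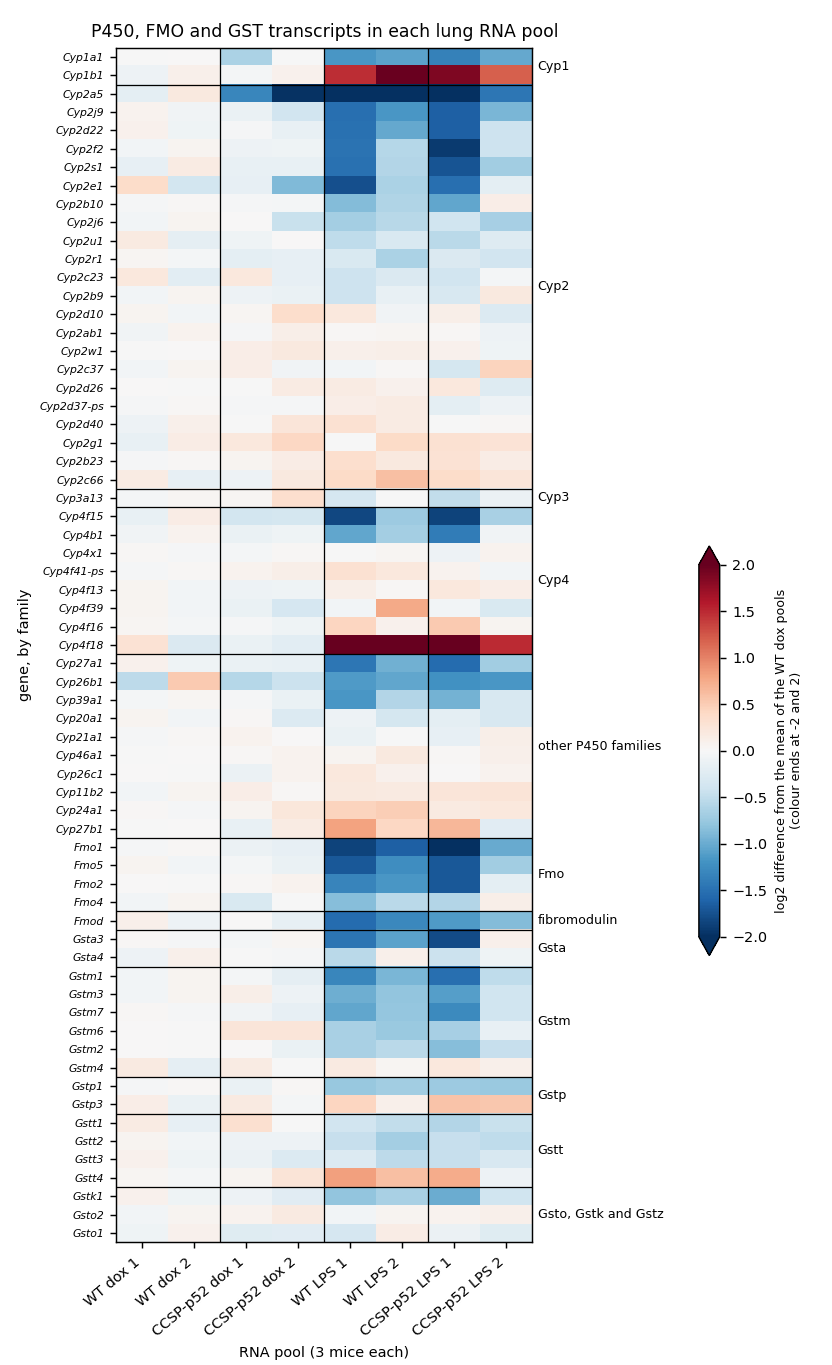
All 65 members (rows, by family) in the 8 pools (columns). Colour gives the log2 difference from the mean of the 2 WT dox pools, red higher and blue lower, ending at −2 and 2. The LPS columns are blue for most FMO and GST genes, the last column is paler, and Cyp1b1 and Cyp4f18 are red in all 4 LPS pools.

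Many members lie in tandem arrays of paralogues, and in most arrays not all genes were called with LPS. In RefSeq gene order (GRCm38.p6), 36 members formed 9 groups with starts no more than 500000 bases from the next. On chromosome 3, 5 of the 6 Gstm genes (Gstm7, Gstm6, Gstm3, Gstm2 and Gstm1) were lower with LPS, and Gstm4 was not called (0.10 ± 0.09). On chromosome 10, Gstt3, Gstt1 and Gstt2 were lower and Gstt4 was not called (0.44 ± 0.19). On chromosome 1, Fmo1 and Fmo2 were lower beside Fmo4. On chromosome 7, Cyp2s1, Cyp2a5 and Cyp2f2 were lower among 7 Cyp2 genes, and Cyp2b10 was not called (−0.58 ± 0.22). Only Cyp2d22 of 5 Cyp2d genes on chromosome 15 and only Cyp4f15 of 5 Cyp4f genes on chromosome 17 were called lower. Both Cyp2j genes on chromosome 4 were called lower. Some uncalled genes had low mean log2 values, which limits what they can show. These were 6.46 to 7.38 for the uncalled Cyp2d genes, against 10.74 for Cyp2d22, and 6.42 for Gstt4. Other uncalled genes lay higher, such as Gstm4 (9.06) and Cyp4f13 (9.39). Such paralogues can share probe sequence, so a value may include RNA of a close relative. Another 12 probe sets at this level carried several symbols including a matching one, and 5 of them were called with LPS, 4 lower.

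The size of the falls varied between pools. Relative to the dox pools of the same genotype, the 28 members that were lower had a median difference of −1.16 in WT LPS pool 1, −0.76 in WT LPS pool 2, −1.04 in CCSP-p52 LPS pool 1 and −0.40 in CCSP-p52 LPS pool 2. The last of these pools had the smallest fall for 23 of the 28. Leaving it out, 33 members were lower and 8 higher, and leaving out WT LPS pool 2, 24 were lower and 3 higher. Leaving out pool 1 of CCSP-p52 dox, of CCSP-p52 LPS or of WT LPS, or pool 2 of WT dox, gave 2 higher members. Of the 28 lower members, 20 were called whichever pool was left out, and of the 4 higher, Cyp4f18 and Cyp1b1 were. The other calls were lost in most of the 8 fits with 1 pool left out. That of Gsta3 was lost in 7, and those of Cyp2a5, Cyp2f2, Cyp4f15, Cyp2r1, Gstt3 and Cyp2c66 in 6. Those of Cyp2j6, Cyp2u1 and Gstp3 were lost in 5. Moving the level threshold to 5 or 7 changed the median of the members to −0.09 or −0.60.

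**Figure D4:**
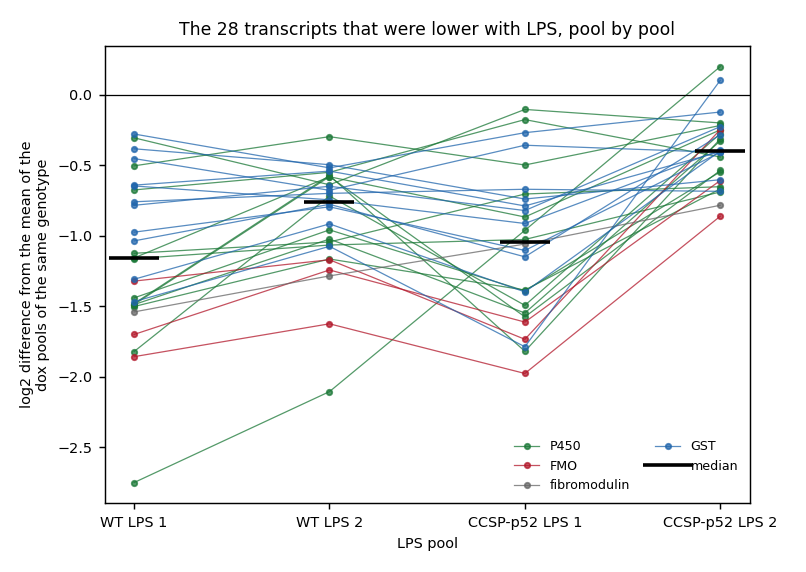
The 28 members lower with LPS, as log2 differences of each LPS pool from the mean of the dox pools of its genotype. Each thin line is 1 gene across pools, which have no order; black bars are medians. The median is −0.40 in CCSP-p52 LPS pool 2 and between −0.76 and −1.16 in the other pools.

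Markers of several lung cell types were also called with LPS, as were 24.7% of all genes as lower and 15.2% as higher. With LPS, 9 of 10 endothelial markers were lower (means of 12.35 to 12.49 in dox pools and 11.06 to 11.86 in LPS pools), as were 7 of 8 alveolar type I markers (12.02 to 12.08, and 11.01 to 11.72). Of 10 club cell markers, 5 were lower and 1 higher (means of 10.78 to 11.41, and 9.93 to 10.97), and of 10 alveolar type II markers 3 were lower (12.05 to 12.42, and 11.74 to 12.30). Of 9 ciliated cell markers, 0 passed in limma (4 had an unadjusted p under 0.05), with 9 of 9 lower in sign, and 3 passed with the pool number as a block. Fibroblast markers were lower in 3 of 7 (10.58 to 10.68, and 10.17 to 10.45). Cardiac muscle markers were lower in 4 of 7 (9.77 to 10.52, and 8.17 to 9.97). Macrophage markers were higher in 6 of 9 (8.12 to 8.72, and 9.93 to 10.37). The part of these cell types in the falls of Cyp2f2, Fmo2 and the other members was not tested. In WT LPS pool 2, which carried the squamous signal, Cyp4f39, a P450 of epidermal lipid synthesis, read 8.82, against 7.73 to 8.12 in the other 7 pools. Other members also read highest there by less, such as Cyp2c66 (6.99, against at most 6.76) and Gsto1 (9.65, against at most 9.58). The part of squamous tissue in these values was not tested.

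The counts of related genes below stand beside 24.7% of all genes called lower with LPS and 15.2% called higher. Of 11 genes listed as electron or binding partners of P450s, 8 had a probe set. Por, the P450 reductase gene, was not among the 8. Of these, 4 were lower and 0 higher with LPS, a median over the 8 of −0.32. The 4 were Pgrmc1 (−0.90 ± 0.13), Cyb5r3 (−0.69 ± 0.14), Pgrmc2 (−0.49 ± 0.12) and Cyb5a (−0.39 ± 0.11). Of 16 genes for glutathione synthesis, recycling and export, 7 were higher and 2 lower, with a median of 0.31. Slc7a11, the cystine importer, read 6.48, 6.36, 6.70 and 6.60 without LPS and 11.63, 11.03, 11.60 and 10.32 with LPS (4.61 ± 0.28; 24.5-fold). Gsr, the glutathione reductase, rose by 0.80 ± 0.10, and Gss, the glutathione synthetase, fell by 0.41 ± 0.07. Of 20 transcription factors of the xenobiotic response, 5 were higher and 4 lower, with a median of 0.05. Among the higher were Cebpb (1.17 ± 0.19) and Vdr (1.03 ± 0.20). Among the lower were Ahr and Nr3c1, the glucocorticoid receptor (−0.50 ± 0.07). Of 36 other oxidising and hydrolysing enzymes, 19 were lower and 6 higher, with Maoa (−1.27 ± 0.15), Ces1f (−1.22 ± 0.15), Ces2e (−0.96 ± 0.08) and Akr1b8 (0.61 ± 0.07) leading by p. Of 29 genes listed for other conjugating and related enzymes, 22 had a probe set and 14 were at the level used. Ugt2b34, Ugt2b35, Ugt2b5 and Ugt8a were below it. Of the 14, 5 were higher and 3 lower, led by Nnmt (0.78 ± 0.08), Ptges (1.96 ± 0.23), Papss1 (−0.39 ± 0.07) and Tpmt (0.65 ± 0.12).

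Within each genotype, 2 pools with LPS were set against 2 without, in a model of all 4 groups with a shared spread. In WT lungs 19 members were lower (29.2%) and 3 higher (4.62%) (limma, adjusted p under 0.05; 16.7% and 9.21% of all genes), and in CCSP-p52 lungs 6 were lower (9.23%) and 2 higher (3.08%), against 6.0% and 4.99% of all genes. The 6 were Fmo1, Cyp2j9, Fmod, Gstp1, Gstt1 and Gstm2. With the pool number as a block, 13 were lower in CCSP-p52 lungs. With the 2 groups of a genotype fitted alone, 23 were lower in WT lungs and 0 in CCSP-p52 lungs. Without CCSP-p52 LPS pool 2 the count lower in CCSP-p52 lungs was 24, and without any other single pool it was 0 to 3. The count lower in WT lungs was 1 to 8 when 1 of the dox pools or of the WT LPS pools was left out, and 29 without either CCSP-p52 LPS pool. Leaving out single pools gave 0 to 5 members higher in either genotype, with 5 in WT lungs when a CCSP-p52 LPS pool was left out and 5 in CCSP-p52 lungs when pool 2 of that LPS group was. These counts do not test whether the genotypes differed. The difference itself was tested as the p52 effect with LPS minus the p52 effect without it.

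The second comparison asked what p52 did to the members. In the additive model, 0 of 65 members reached the cut-off (a log2 change of at least 0.41, the size that the study took for increases, applied here either way and joined to an unadjusted p of at most 0.05), which 0.0449% of all genes reached as lower and 0.205% as higher. By adjusted p, limma called 0 members (0.00641% of all genes, as higher), and 1, Gstm6 (0.27 ± 0.11), had an unadjusted p under 0.05 (0.795% of all genes lower and 1.21% higher). The median log2 change was −0.01, between −0.62 for Cyp2a5 and 0.27 for Gstm6. Leaving out pool 1 of WT LPS, of WT dox or of CCSP-p52 dox, or pool 2 of CCSP-p52 LPS, put 1 member at the cut-off as lower. In dox lungs, 1 member lay at the cut-off as lower and 0 as higher (0.135% and 0.564% of all genes). Without WT dox pool 1 or either CCSP-p52 dox pool, 2 were lower.

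That member was Cyp2a5, which hydroxylates coumarin and activates tobacco nitrosamines. It read 9.58 and 9.97 in WT dox and 8.47 and 7.80 in CCSP-p52 dox, and 7.02 and 7.67 in WT LPS and 7.17 and 8.33 in CCSP-p52 LPS. Without LPS the genotypes did not overlap, and with LPS they did. The p52 effect without LPS was −1.64 ± 0.42 (3.13-fold lower; unadjusted p = 0.0062, limma; adjusted p = 1.0), and −1.98 to −1.31 when single pools were left out. LPS changed it by −1.41 ± 0.45 over both genotypes (adjusted p = 0.044). Within genotypes the change was −2.43 ± 0.42 in WT lungs and −0.38 ± 0.42 in CCSP-p52 lungs, where the LPS and dox pools overlapped. The p52 effect was higher by 2.05 ± 0.60 with LPS (0.40 ± 0.42) than without (unadjusted p = 0.011; adjusted p = 0.913). Among the airway markers, the 10 club cell genes averaged 11.39 and 11.41 in WT dox and 10.94 and 10.78 in CCSP-p52 dox. All 10 were lower in sign, with a median log2 difference of −0.151, and 1, Bpifa1, was at the cut-off. Bpifa1, a secreted protein of the upper airway, read 10.30, 8.54, 6.86 and 6.12 in the same 4 pools. Scgb3a1 read 12.48, 12.71, 11.81 and 10.81, and Scgb1a1, the main club cell secretory protein, read 13.63, 13.77, 13.66 and 13.64. Every marker at the level used was also lower in sign for ciliated cells (9 genes, median log2 difference −0.245), cardiac muscle (7, −0.352), adipose tissue (6, −0.423) and endothelium (10, −0.0557). Of these, Adipoq was at the cut-off (−0.96 ± 0.40), though not with the pool number as a block. The part of these cell types in the Cyp2a5 value was not tested. Cyp2a5 has close paralogues that can share its probes.

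**Figure D5:**
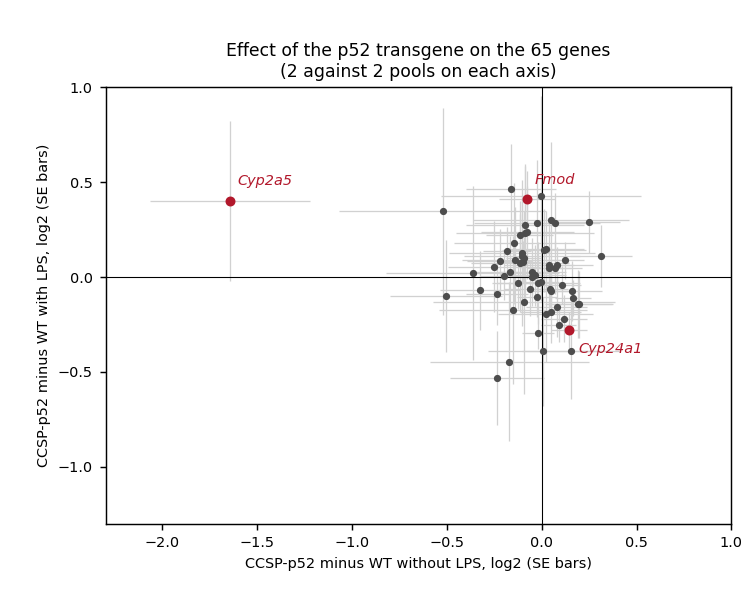
Effect of p52 on the 65 members without LPS (horizontal) and with LPS (vertical), as log2 differences CCSP-p52 minus WT with SE bars, 2 against 2 pools on each axis. Cyp2a5 lies at −1.64 and 0.40 and Fmod at −0.08 and 0.41, while most members cluster around 0 on both axes.

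With LPS, 0 members were lower and 1 higher at the cut-off (0.891% and 0.897% of all genes), and 4 had an unadjusted p under 0.05 (3.36% of all genes lower and 2.99% higher). The 1 was Fmod, which read 7.09 and 7.34 in WT LPS and 7.49 and 7.76 in CCSP-p52 LPS (0.41 ± 0.15; unadjusted p = 0.028, limma). It was no longer at the cut-off when pool 1 of WT LPS (0.285) or pool 2 of CCSP-p52 LPS (0.275) was left out. The counts turned on the pools: without CCSP-p52 LPS pool 1, 4 members were lower and 18 higher, and without CCSP-p52 LPS pool 2, 4 were lower and 0 higher. Without WT LPS pool 1, 1 was lower and 1 higher. With the pool number as a block, Fmo4 was also higher (0.47 ± 0.15; unadjusted p = 0.020), for 2 members.

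The p52 effects with and without LPS differed at the cut-off for 1 member each way (2.05% of all genes lower and 1.1% higher), 3 had an unadjusted p under 0.05 (2.8% and 1.71%), and limma called 0 by adjusted p. Besides Cyp2a5, the member was Cyp24a1, which inactivates vitamin D. It read 6.35 and 6.31 in WT dox, 6.39 and 6.55 in CCSP-p52 dox, 6.78 and 6.83 in WT LPS, and 6.50 and 6.54 in CCSP-p52 LPS. The WT LPS pools were above all others, all values lay near the low end of the level range, and the difference was −0.42 ± 0.13 (unadjusted p = 0.017; adjusted p = 0.913). With the block, Fmo4 joined Cyp2a5 as higher (0.63 ± 0.21). Without CCSP-p52 LPS pool 1, 3 members were lower and 18 higher. Leaving out any other single pool gave 0 to 2 lower and 1 to 2 higher.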

How the data were processed

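Whole-lung RNA of 8 pools was hybridised to Affymetrix Mouse Gene ST arrays. The authors deposited log2 values made by robust multi-array average (RMA), which corrects background, quantile normalizes and summarises probes, for 35556 probe sets. limma 3.20.8 is named in their processing notes. Quantile normalization sets arrays to 1 distribution, so changes are relative to the whole array, and the number of arrays limits the precision. Of the probe sets, 21218 had 1 gene symbol in the platform table, 1881 had several, and the rest were unnamed here. The labels name another version of the Gene ST array than the platform table, so whether each name belongs to exactly this array was not settled.

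Those 21218 were fitted with lmFit and eBayes in limma 3.58.1 (R 4.3.3): genotype plus LPS over 8 arrays, the factors that the study's methods name, and a model of 4 groups for the effects within a genotype or treatment and for the difference. Benjamini-Hochberg adjustment ran over all 21218 probe sets. LPS effects were called at an adjusted p under 0.05, p52 effects at 0.41 on the log2 scale either way, a size taken from the study's cut-off for increases, with an unadjusted p of at most 0.05 added here. Errors after ± are SEs. Members, gene lists and cell type markers were chosen with earlier results of these data known, so no list was tested as a set. The text names the 10 members with the largest called LPS change each way, members at the cut-off for p52, genes best known in lung, neighbours of the level threshold, and up to 4 genes by p of each other list, and others were named after their values were seen to account for families. Same-numbered pools deviated together in each of 6 pairs of groups (r = 0.14 to 0.35 over probe sets). A block by pool number was therefore fitted as an alternative, and the main fits held no block. That pairing comes from the values and not the labels. Alternatives were a replicate block, array weights, other moderation, re-centring, repeated quantile normalization, other adjustment sets, level thresholds and thresholds for calls, the mean of a gene's probe sets, each pool left out and, chosen after seeing the data, both second LPS pools left out. Scripts were tested on simulated data. Promoters and gene order are from RefSeq GRCm38.p6.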

Additional observations from a re-analysis of the deposited data

Results flagged for a closer look

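The effect of p52 on Cyp2a5 differed between lungs with and without LPS by 2.05 ± 0.60 on the log2 scale in the test of the difference itself (2 pools in each of 4 groups; limma, unadjusted p = 0.011, adjusted p = 0.913), with −1.64 without LPS and 0.40 with it. It stayed at the cut-off without any single pool (1.47 to 2.63).

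The effect of p52 on Cyp24a1 differed by −0.42 ± 0.13 (unadjusted p = 0.017, adjusted p = 0.913), with 0.14 without LPS and −0.28 with it. It was not at the cut-off when pool 1 of CCSP-p52 LPS, or pool 2 of WT LPS, of WT dox or of CCSP-p52 dox, was left out, with values of −0.34 to −0.40.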

How the results depend on the processing

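With LPS over both genotypes, members lower numbered 15 at an adjusted p under 0.01 and 20 to 33 without single pools, against 28. Members higher, against 4, numbered 9 with array weights, 8 re-centred, 7 without both second LPS pools (chosen after seeing the data), 2 at 0.01 and 2 to 8 without single pools. Their median (−0.30) was −0.407 without both second LPS pools, −0.0924 and −0.595 at levels of 5 and 7, and −0.348 to −0.234 without single pools.

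In WT lungs, members lower (19) numbered 29 with array weights, 11 adjusted over all probe sets, 29 without both second LPS pools, 2 at 0.01 and 1 to 29 without single pools, and members higher (3) numbered 5 with the 2 groups alone, 6 with array weights, 6 without both second LPS pools, 1 at 0.01 and 0 to 5 without single pools. The median (−0.35) was −0.0937 and −0.718 at levels of 5 and 7, and −0.49 to −0.273 without single pools. In CCSP-p52 lungs, members lower (6) numbered 0 with the 2 groups alone, 2 adjusted over all probe sets, 13 with the replicate block, 26 without both second LPS pools, 0 at 0.01 and 0 to 24 without single pools, and members higher (2) numbered 0 with the 2 groups alone, 5 without both second LPS pools, 0 at 0.01 and 0 to 5 without single pools. The median (−0.23) was −0.359 without both second LPS pools, −0.106 and −0.424 at levels of 5 and 7, and −0.359 to −0.155 without single pools.

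For p52 over both treatments, members lower (0) numbered 2 with array weights, 1 without both second LPS pools and 0 to 1 without single pools. Without LPS, members lower (1) numbered 3 at a level of 5, 0 at an adjusted p under 0.05 and 1 to 2 without single pools. With LPS, members lower (0) numbered 1 without both second LPS pools and 0 to 4 without single pools. Members higher with LPS (1) numbered 0 with the 2 groups alone, array weights, re-centring, both second LPS pools left out or an adjusted p under 0.05, 2 with repeated quantile normalization or the replicate block, and 0 to 18 without single pools. The median with LPS (0.03) was −0.116 to 0.0941 without single pools. For the difference, members lower (1) numbered 0 with repeated quantile normalization, a level of 7 or an adjusted p under 0.05, 2 without both second LPS pools or at a level of 5, and 0 to 3 without single pools. Members higher (1) numbered 2 with repeated quantile normalization, the replicate block or a level of 5, 3 without both second LPS pools, 0 at an adjusted p under 0.05 and 1 to 18 without single pools. The median difference (0.05) was 0.195 at a level of 7 and −0.113 to 0.171 without single pools.

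The LPS effect on Gsto1 (−0.02) ranged from −0.0993 (without WT LPS pool 2) to 0.0936 (without WT LPS pool 1) and changed sign at 0.0401 re-centred, 0.0253 with repeated quantile normalization and 0.0308 without WT dox pool 2. The replicate block moved no other count of members by over 1.5 times. Without single pools, the shares of all genes called were not counted, so those counts of members have no comparison. Where the cause is not in the setting itself (fewer pools, a stricter call), the cause was not tested. Values near a log2 level of 6 lie close to the arrays' background, which limits what low members can show.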
